A study of Homo sapiens with 12 samples.

Results

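The 10 genes described here are circadian clock genes, mostly repressors of the feedback loops: the period genes PER1, PER2 and PER3, the cryptochrome genes CRY1 and CRY2, the bHLH repressor genes BHLHE40 (DEC1) and BHLHE41 (DEC2), the REV-ERB nuclear receptor genes NR1D1 and NR1D2, and the PAR bZIP gene DBP. They were taken from the count table by symbol, through the Ensembl identifier of each row. No value of the table was a criterion of the choice, but the list was made with earlier results of these data known. The members are 10 of the 19901 genes in the table. A gene was tested when 6 or more of the 12 libraries held 10 or more of its reads, which left 13093 genes, and all 10 members were among them.

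Reads were counted in HCT116, a colorectal carcinoma line of human origin, as 1 KAP1-dTAG clone in which endogenous KAP1 (encoded by TRIM28) carries a degron tag. The dTAG molecule brings the tagged protein to a ubiquitin ligase, so the protein is removed and its gene is left in place. Every group carried the tag and was kept without serum for 48 h, with DMSO (the solvent) or dTAG for the 8 h before stimulation. Each group had 3 libraries. DMSO-S0 and dTAG-S0 received no serum, and DMSO-S30 and dTAG-S30 were stimulated with serum for 30 min.

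In the mammalian clock the activators CLOCK and BMAL1 bind E-box sequences and switch on the PER and CRY genes, whose proteins return to the nucleus and repress those activators. BHLHE40 and BHLHE41 compete for the same E-boxes, the REV-ERB receptors repress BMAL1, and DBP activates genes through D-boxes. Serum given to starved cultured cells is a classical stimulus that resets their clocks, and PER1 is known as a clock gene that also responds as an immediate early gene (IEG), that is, within minutes and without new protein synthesis.

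The sequences of the 10 promoters show which of these genes carry the letters of the clock's own binding motif close to a start site. RefSeq windows on GRCh38.p14, from 250 bases before to 50 bases after each annotated start, matched all 10 genes by symbol, with 1 window each for 7 genes and 2 windows each for PER3, CRY2 and NR1D2. Both strands were searched for the E-box CACGTG and for the E'-box CACGTT, in which the last letter differs. The E-box was found in 4 of the 10 genes and the E'-box in 4 others, so that 8 of 10 held one or the other. Counted by window, 8 of the 13 windows of these genes held one or the other, against 12.2% of all 35116 windows (7.26% for the E-box and 5.34% for the E'-box). The shares of all windows given here are per window, also where genes are counted. The matches are shown in 30 bases of the gene's own strand, with the motif in capitals, and positions are counted from the start site, with -1 the base just before it.

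PER1 at -173 (chr17:8152560-8152589, minus strand): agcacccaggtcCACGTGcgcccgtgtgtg
BHLHE40 at -245 (chr3:4979187-4979216, plus strand): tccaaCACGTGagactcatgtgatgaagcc
BHLHE41 at -48 (chr12:26125068-26125097, minus strand): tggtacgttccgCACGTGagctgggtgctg
NR1D2, second start, at -155 (chr3:23945954-23945983, plus strand): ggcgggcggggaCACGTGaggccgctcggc
NR1D2, second start, at -105 (chr3:23946004-23946033, plus strand): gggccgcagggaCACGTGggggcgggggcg
PER2 at -197 (chr2:238288790-238288819, minus strand): ggcgcgcgcggtCACGTTttccactatgtg
CRY1 at -89 (chr12:107093621-107093650, minus strand): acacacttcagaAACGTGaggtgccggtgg
CRY2, second start, at -188 (chr11:45847275-45847304, plus strand): acacatggtaggAACGTGagggggcgggcc
NR1D1 at -168 (chr17:40100740-40100769, minus strand): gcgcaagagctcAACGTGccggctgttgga

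PER3 and DBP had no E-box or E'-box in these windows. The PER2 window also held a D-box, searched as TTATGTAA or TTACGTAA, as did windows of PER3 and NR1D2, while 1.01% of all windows held one. The CRE half-site TGACG, the core of the CREB binding site, was present in PER2, CRY1, CRY2 and NR1D2 and in 24.6% of all windows, and is itself contained in the full CRE. The full CRE TGACGTCA and the CArG box, the binding sequence of the serum response factor, were in none of the 10 genes and in 1.85% and 1.29% of all windows. The RORE core AGGTCA was in PER1 and CRY2 and in 13.8% of all windows. These matches are letters in a short window, and none was tested for binding.

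The PER1 and BHLHE40 promoters are given at greater length because these 2 genes had the largest responses to serum of the 10. Both stretches lie outside GENCODE v44 exons and inside the gene models over which reads were counted. The capitals mark the E-box.

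PER1, bases -250 to -32 (chr17:8152436-8152654, minus strand): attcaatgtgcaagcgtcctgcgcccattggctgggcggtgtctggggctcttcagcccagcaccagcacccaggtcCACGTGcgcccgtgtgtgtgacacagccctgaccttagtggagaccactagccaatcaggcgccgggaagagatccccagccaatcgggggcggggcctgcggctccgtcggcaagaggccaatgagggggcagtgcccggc
BHLHE40, bases -250 to -1 (chr3:4979187-4979436, plus strand): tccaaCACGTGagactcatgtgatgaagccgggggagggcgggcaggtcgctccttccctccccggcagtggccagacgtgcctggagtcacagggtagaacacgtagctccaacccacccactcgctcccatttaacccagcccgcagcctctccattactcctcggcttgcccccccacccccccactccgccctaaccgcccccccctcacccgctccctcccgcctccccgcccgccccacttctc

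Total counts ran from 20537682 to 26278707 per library, of which the ERCC spike-ins (synthetic RNA added to each sample) took 7.97% to 9.37%. FOS, the reference IEG, stood at 5.48 ± 0.82 normalised CPM (read counts scaled to library size, the unit of every level given here) in DMSO-S0 and 485 ± 43.9 in DMSO-S30, and at 4.92 ± 0.25 and 391 ± 16.9 in dTAG-S0 and dTAG-S30 (mean ± SD, n = 3). The group means of the TRIM28 transcript were 92.6 to 115 CPM, which says nothing of the tagged protein. All 5 epithelial markers were present in every library, with a summed level of 1140 to 1560 CPM. Of the fibroblast, leukocyte and endothelial markers COL1A1 was the only one above 60 counts (250 to 1789). The summed fibroblast level, nearly all COL1A1, was 13.5 to 15.8 CPM in DMSO-S0 and 79.1 to 85.6 in DMSO-S30, and 11.9 to 14.7 and 65.8 to 78.1 in dTAG-S0 and dTAG-S30, while COL1A2, COL3A1, DCN and LUM had at most 7 counts. One library, DMSO-S0 replicate 1, stood apart on the factor estimated from the spike-ins, at -0.714 against -0.308 to 0.417 in the others. That factor is a term of the fit, and no member's call changed when this library was left out.

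Serum was compared with no serum in DMSO-treated cells to ask how the clock genes respond when KAP1 is present. PER1 rose 4.07-fold and BHLHE40 rose 8.61-fold, while CRY1, CRY2, PER2, BHLHE41 and NR1D2 rose by 1.14-fold to 1.52-fold. DBP fell, by 0.44 on the log2 scale, and PER3 and NR1D1 did not pass the test. Thus 7 members rose and 1 fell, where 9.18% of all genes tested rose and 17.1% fell (edgeR quasi-likelihood test, Benjamini-Hochberg adjusted p under 0.05 over all genes tested). The median log2 fold change was 0.32 over the 10 members and -0.07 over all genes tested. The direction of the calls over all genes depends on the scaling: 34.95% of those called were higher here, against 61.41% with TMM scaling, 66.53% with ERCC library sizes and 58.02% in DESeq2. All 8 member calls were kept, in the same direction, under each of these. Where the libraries of 2 groups did not overlap for a member, this is stated. The share of all genes tested without overlap was not computed, so it is no support beyond the test. In bulk RNA, fewer cells expressing a gene and less RNA per cell cannot be told apart.

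**Figure D1:**
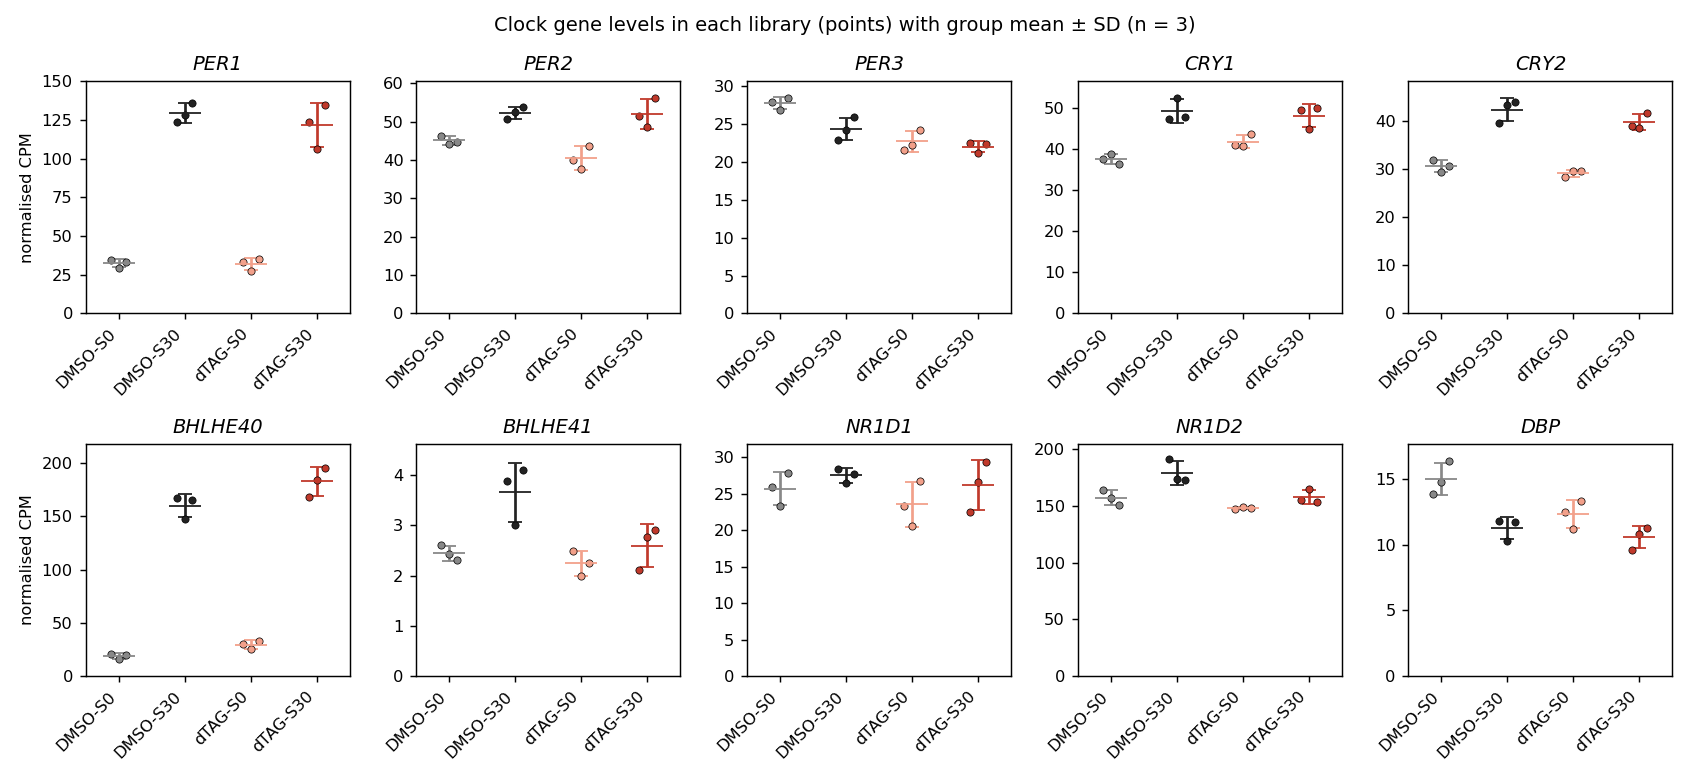
Each panel plots 1 clock gene, with normalised CPM (linear axis from 0) against the 4 groups; points are libraries, and horizontal lines with bars are the mean ± SD of 3 libraries. PER1 and BHLHE40 sit at 16.1 to 35.2 CPM in the 6 libraries without serum and at 106 to 196 CPM in the 6 with serum, and the other 8 genes move far less.

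Of the period genes, which encode the repressors that time the clock, PER1 moved most. PER1 (chr17:8140472-8156506, hg38, minus strand) stood at 34.4, 29.5 and 33.2 CPM in DMSO-S0 and at 124, 128 and 136 CPM in DMSO-S30. Every library with serum was above every library without. The log2 fold change was 2.03 with an SE of 0.089, and an adjusted p of 2.93e-16 in edgeR. In dTAG-treated cells PER1 stood at 33.2, 27.6 and 35.2 CPM without serum and at 123, 106 and 135 CPM with serum. The groups again did not overlap, and the log2 fold change was 1.91 (SE 0.085, edgeR adjusted p = 6.05e-16).

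PER2, whose protein partners CRY in the repressor complex, moved in the same direction on a much smaller scale. PER2 (chr2:238244038-238290102, minus strand) was at 46.4, 44.2 and 44.7 CPM in DMSO-S0 and at 50.7, 52.4 and 53.7 CPM in DMSO-S30. In dTAG-S0 it was at 40.0, 37.6 and 43.8 CPM and in dTAG-S30 at 51.5, 48.5 and 56.2 CPM. Neither pair of groups overlapped, and the log2 fold change was 0.23 in DMSO (edgeR adjusted p = 0.0165) and 0.35 in dTAG (edgeR adjusted p = 0.000504). Without DMSO-S30 replicate 3 the DMSO value was 0.22 and its adjusted p was 0.0661 in edgeR.

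PER3, the period gene considered the least essential to rhythm, went the other way in DMSO without passing the test. PER3 (chr1:7784320-7845177, plus strand) was at 27.9, 26.9 and 28.5 CPM in DMSO-S0 and at 22.9, 24.3 and 25.9 CPM in DMSO-S30, with all 3 serum libraries below all 3 others. The log2 fold change was -0.18, with a 95% interval of -0.34 to -0.01 and an edgeR adjusted p of 0.101. In the fit of the 6 DMSO libraries alone it was -0.23 (edgeR adjusted p = 0.0257). In dTAG-treated cells PER3 was at 21.6, 22.3 and 24.3 CPM without serum and at 22.5, 21.2 and 22.4 CPM with serum. These groups overlapped, and the log2 difference was -0.05 (95% interval -0.22 to 0.11, edgeR adjusted p = 0.679), with a sign that changed under TMM scaling and in DESeq2.

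The 2 cryptochrome genes, whose proteins are the core repressors of CLOCK and BMAL1, both rose. CRY1 (chr12:106991364-107093829, minus strand) stood at 37.4, 38.7 and 36.3 CPM in DMSO-S0 and at 47.1, 52.4 and 47.7 CPM in DMSO-S30. In dTAG it was at 40.8, 40.7 and 43.5 CPM without serum and at 49.3, 44.8 and 49.8 CPM with serum. The serum libraries were above the others in both treatments, and the log2 fold change was 0.40 in DMSO (edgeR adjusted p = 0.000122) and 0.20 in dTAG (edgeR adjusted p = 0.0360). The dTAG call was lost in edgeR with ERCC library sizes (0.24, adjusted p = 0.0718) and without dTAG-S0 replicate 1 (0.20, 0.0594), dTAG-S0 replicate 2 (0.18, 0.11), dTAG-S30 replicate 1 (0.17, 0.124) or dTAG-S30 replicate 3 (0.18, 0.0892).

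CRY2 (chr11:45847118-45883248, plus strand) was at 32.0, 29.5 and 30.6 CPM in DMSO-S0 and at 39.6, 43.4 and 44.1 CPM in DMSO-S30. In dTAG CRY2 was at 28.3, 29.6 and 29.6 CPM without serum and at 39.1, 38.5 and 41.7 CPM with serum. No library with serum overlapped a library without, and the log2 fold change was 0.50 in DMSO (edgeR adjusted p = 4.15e-06) and 0.43 in dTAG (edgeR adjusted p = 2.72e-05). Both CRY2 calls held when any 1 library was left out and under every other setting run.

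BHLHE40, a repressor that competes with CLOCK and BMAL1 for E-boxes and is also known as a serum-inducible and hypoxia-inducible gene, had the largest change of the 10. BHLHE40 (chr3:4979116-4985323, plus strand) stood at 20.7, 16.1 and 20.3 CPM in DMSO-S0 and at 167, 148 and 165 CPM in DMSO-S30. With dTAG the gene was at 30.0, 25.8 and 33.4 CPM without serum and at 168, 185 and 196 CPM with serum. All 6 serum libraries were far above all 6 others. The log2 fold change was 3.11 in DMSO (SE 0.095, edgeR adjusted p = 8.93e-20) and 2.60 in dTAG (SE 0.087, edgeR adjusted p = 7.82e-19).

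Its paralog BHLHE41 was the lowest-counted member, with 46 to 85 counts per library. BHLHE41 (chr12:26120026-26125127, minus strand) stood at 2.60, 2.43 and 2.31 CPM in DMSO-S0 and at 3.88, 3.0 and 4.10 CPM in DMSO-S30, without overlap. The log2 fold change was 0.60 (95% interval 0.19 to 1.01, edgeR adjusted p = 0.0278). The call was lost without DMSO-S0 replicate 3 (0.63, edgeR adjusted p = 0.0588), DMSO-S30 replicate 1 (0.59, 0.0527) or DMSO-S30 replicate 3 (0.50, 0.124). With dTAG BHLHE41 was at 2.49, 1.99 and 2.25 CPM without serum and at 2.11, 2.77 and 2.90 CPM with serum. These groups overlapped, with a log2 difference of 0.20 and a 95% interval of -0.22 to 0.61, which includes the value measured in DMSO (edgeR adjusted p = 0.523). SSPN covers 61.5% of the BHLHE41 gene model on the other strand, at 4 to 17 counts of its own.

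The REV-ERB genes encode the heme-binding repressors of BMAL1. NR1D2 (chr3:23945260-23980618, plus strand) was the most counted member without serum, at 164, 157 and 150 CPM in DMSO-S0, and stood at 191, 173 and 173 CPM in DMSO-S30. The groups did not overlap, and the log2 fold change was 0.19 (edgeR adjusted p = 0.0174), a call lost without DMSO-S0 replicate 3 (0.16, 0.0713) or DMSO-S30 replicate 1 (0.16, 0.0536). In the dTAG groups it was at 147, 149 and 148 CPM without serum and at 155, 165 and 154 CPM with serum. The serum libraries were again all higher, and the log2 difference of 0.09 (95% interval -0.03 to 0.21) did not pass the test (edgeR adjusted p = 0.270), while DESeq2 gave 0.15 with an adjusted p of 0.0445.

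NR1D1 (chr17:40092787-40100725, minus strand) was at 26, 23.3 and 27.9 CPM in DMSO-S0 and at 28.5, 26.4 and 27.7 CPM in DMSO-S30. In dTAG it was at 23.3, 20.7 and 26.8 CPM without serum and at 22.5, 26.7 and 29.3 CPM with serum. The groups overlapped in both treatments, and the log2 differences were 0.12 in DMSO (95% interval -0.09 to 0.33) and 0.14 in dTAG (95% interval -0.07 to 0.34). Without DMSO-S0 replicate 3 the DMSO value was 0.31 and passed the test (edgeR adjusted p = 0.0277). THRA overlaps 13.6% of the gene model on the other strand, at 740 to 904 counts, and was at a log2 difference of -0.11 with serum in DMSO.

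DBP, a PAR bZIP activator of clock output genes, was the member that fell. DBP (chr19:48630030-48637438, minus strand) was at 13.9, 14.8 and 16.3 CPM in DMSO-S0 and at 11.8, 10.3 and 11.7 CPM in DMSO-S30. All 3 serum libraries were lower, and the log2 fold change was -0.44 (SE 0.108, edgeR adjusted p = 0.00367). Without DMSO-S0 replicate 3 it was -0.29 and did not pass (edgeR adjusted p = 0.0954). With dTAG DBP was at 12.5, 11.2 and 13.3 CPM without serum and at 9.61, 10.8 and 11.2 CPM with serum, where the groups overlapped by 1 library and the log2 difference was -0.21 (95% interval -0.43 to 0.01, edgeR adjusted p = 0.169). SPHK2 overlaps 9.29% of the DBP model on the other strand, at 234 to 298 counts, and was at a log2 difference of -0.19 with serum in DMSO (edgeR adjusted p = 0.211).

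In dTAG-treated cells, serum asks the same question with KAP1 depleted. PER1, PER2, CRY1, CRY2 and BHLHE40 rose, and no member fell. That is 5 of 10 higher, where 9.09% of all genes tested rose and 15.4% fell, and the median log2 fold change was 0.20 over the members and -0.06 over all genes tested. The serum comparisons in DMSO and in dTAG use different libraries, but they share 1 fit.

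**Figure D2:**
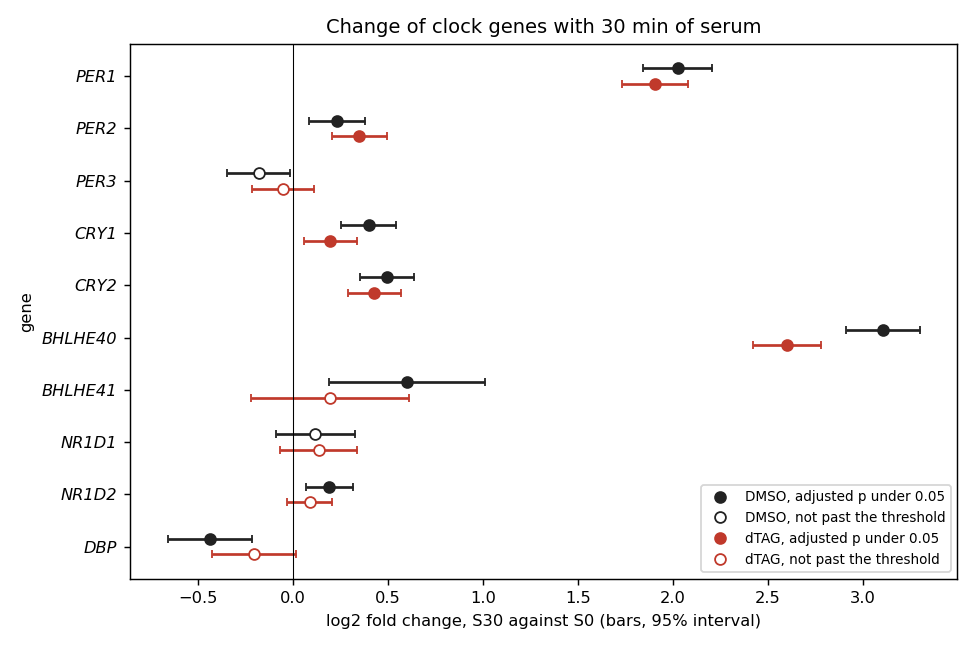
Each row is 1 clock gene and the axis is the log2 fold change between S30 and S0, in DMSO (black) and in dTAG (red); bars are 95% intervals, and filled points passed an adjusted p of 0.05 in edgeR. PER1 lies at 2.03 and 1.91 and BHLHE40 at 3.11 and 2.60, and the other 8 genes lie between -0.44 and 0.60.

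The ratio of 2 paralogs within a library does not depend on how libraries are scaled, so it shows whether members of a family moved together. The ratios of counts were compared with and without serum by an exact two-sided permutation test that shuffled the serum labels within each treatment (400 assignments, smallest possible p of 0.005, adjusted over 6 pairs). PER1 had fewer counts than PER2 without serum and more with it: the mean PER1/PER2 count ratio was 0.717 ± 0.043 in DMSO-S0 and 2.47 ± 0.05 in DMSO-S30, and 0.790 ± 0.050 and 2.33 ± 0.12 in dTAG-S0 and dTAG-S30 (SD, n = 3, exact permutation p = 0.005, adjusted p = 0.0075). The ratio of counts crossed 1 in both treatments, but the PER2 gene model is longer, at 46.065 kb against 16.035 kb for PER1. Per kb of gene model, PER1 was already above PER2 without serum, at 2.02 against 0.979 CPM per kb in DMSO-S0. In dTAG-S0 the values were 1.997 for PER1 and 0.878 for PER2. The crossing of 1 therefore depends on gene length and does not rank the levels of these genes.

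The PER2/PER3 ratio moved less, from 1.62 ± 0.05 to 2.15 ± 0.07 in DMSO and from 1.78 ± 0.08 to 2.36 ± 0.13 in dTAG, a mean shift of 0.41 on the log2 scale (exact permutation p = 0.005, adjusted p = 0.0075). PER1/PER3 shifted by 2.08 on the log2 scale, with the same exact permutation p of 0.005, the smallest the test can give. The 3 period genes were thus ordered PER1, PER2 and PER3 in their response.

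BHLHE40/BHLHE41 went from 7.80 ± 1.09 to 44.3 ± 4.71 in DMSO and from 13.3 ± 1.43 to 71.3 ± 7.29 in dTAG, a mean log2 shift of 2.47 (exact permutation p = 0.005, adjusted p = 0.0075). CRY1/CRY2 shifted by -0.16 on the log2 scale (exact permutation p = 0.03, adjusted p = 0.036), that is, CRY2 gained on CRY1. In DMSO its values overlapped, with means of 1.22 ± 0.08 and 1.16 ± 0.07, and in dTAG they did not, with means of 1.43 ± 0.05 and 1.21 ± 0.05. The CRY1/CRY2 call was lost without DMSO-S0 replicate 2 or DMSO-S30 replicate 3, each with an adjusted p of 0.06. NR1D1/NR1D2 lay between 0.139 and 0.191 in all 12 libraries, with a log2 shift of -0.01 (exact permutation p = 0.905).

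**Figure D3:**
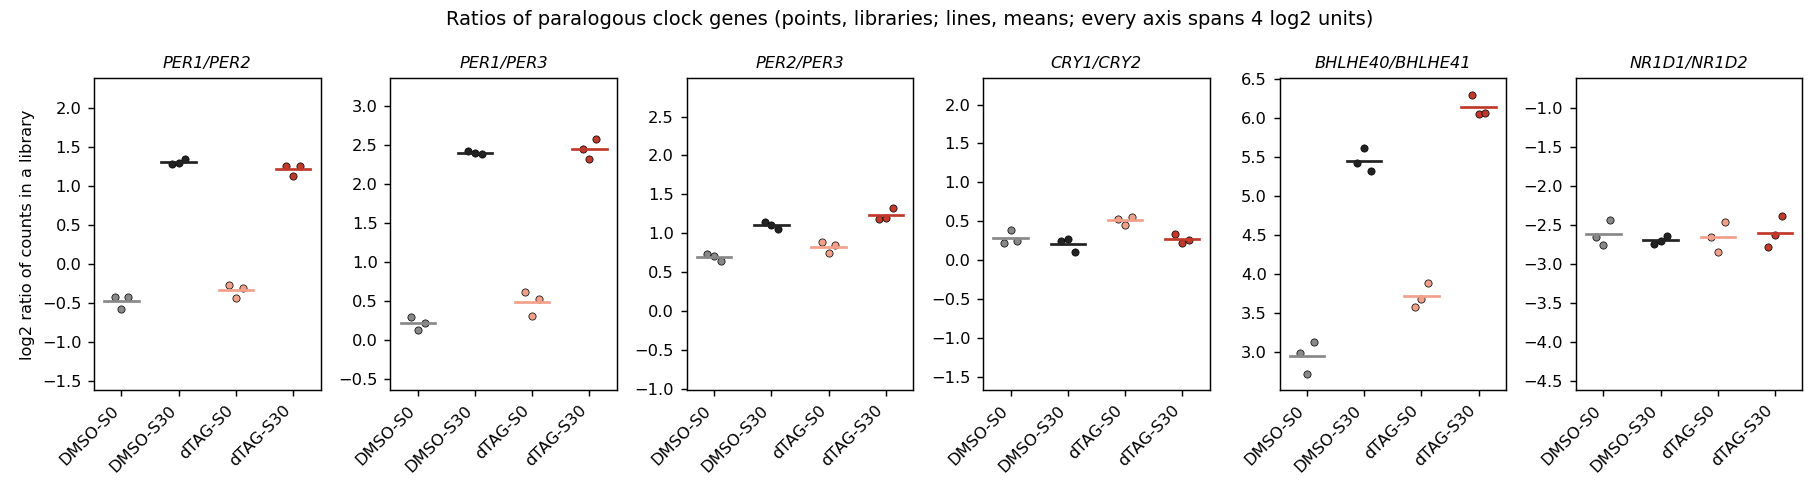
Each panel plots the log2 ratio of the counts of 2 paralogs in every library (points) with the group mean (line), by group; every vertical axis spans 4 log2 units. With serum the PER1/PER2, PER1/PER3 and BHLHE40/BHLHE41 ratios move by 1.67, 2.08 and 2.47 log2 units, while CRY1/CRY2 and NR1D1/NR1D2 move by -0.16 and -0.01.

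Levels of different genes are compared here as CPM per kb of the gene model, introns included, which is a mean over intron and exon and not a transcript level. In DMSO-S0 the order was NR1D2 at 4.45 ± 0.19, NR1D1 at 3.24 ± 0.29, BHLHE40 at 3.06 ± 0.41, DBP at 2.02 ± 0.17, PER1 at 2.02 ± 0.16, PER2 at 0.979 ± 0.025, CRY2 at 0.850 ± 0.035, BHLHE41 at 0.479 ± 0.029, PER3 at 0.457 ± 0.013 and CRY1 at 0.366 ± 0.012 CPM per kb (SD, n = 3). NR1D1 and BHLHE40 overlapped in their libraries, as did DBP and PER1, and BHLHE41 and PER3. The other neighbours in this order did not overlap.

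In DMSO-S30 BHLHE40 was first at 25.8 ± 1.69 and PER1 second at 8.07 ± 0.40 CPM per kb, followed by NR1D2 at 5.06 ± 0.29, NR1D1 at 3.47 ± 0.13 and DBP at 1.52 ± 0.11. CRY2 and PER2 came next at 1.17 ± 0.07 and 1.13 ± 0.03, which overlapped, and then BHLHE41 at 0.717 ± 0.115, CRY1 at 0.479 ± 0.028 and PER3 at 0.400 ± 0.024. In dTAG-S0 BHLHE40 at 4.79 ± 0.61 and NR1D2 at 4.19 ± 0.03 headed the order and overlapped. In dTAG-S30 the first 3 were BHLHE40 at 29.5 ± 2.26, PER1 at 7.58 ± 0.89 and NR1D2 at 4.47 ± 0.17 CPM per kb, with no overlap among them. PER3 was the last of the 10 in both serum groups and also in dTAG-S0, where it overlapped with CRY1.

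dTAG was compared with DMSO in cells without serum to ask what KAP1 depletion does before stimulation. No untagged cells were among the groups, so an effect of the dTAG molecule itself cannot be told apart from KAP1 depletion. BHLHE40 was the member that passed the test, higher with dTAG by 0.67 on the log2 scale (95% interval 0.47 to 0.87, edgeR adjusted p = 0.000171), with all 3 dTAG-S0 libraries (25.8 to 33.4 CPM) above all 3 DMSO-S0 libraries (16.1 to 20.7 CPM). Of all genes tested, 0.855% were higher and 0.451% lower. The call held when any 1 library was left out and under every other setting run. dTAG-S0 was still far below DMSO-S30, where BHLHE40 was at 148 to 167 CPM.

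The other 9 members did not pass, and 4 of the 10 had an unadjusted p under 0.05, as did 11.7% of all genes tested. All 3 dTAG-S0 libraries had less PER3 than all 3 DMSO-S0 libraries, at 21.6 to 24.3 CPM against 26.9 to 28.5 CPM, with a log2 difference of -0.28 (95% interval -0.44 to -0.12, edgeR adjusted p = 0.0819). It passed in DESeq2 (-0.28, adjusted p = 0.0395), in edgeR's likelihood ratio test (-0.28, adjusted p = 0.0321), without the spike-in factor (-0.29, adjusted p = 0.0493) and without a count filter (-0.30, adjusted p = 0.0415). It also passed without DMSO-S30 replicate 1 (-0.28, edgeR adjusted p = 0.0372) or dTAG-S30 replicate 3 (-0.28, edgeR adjusted p = 0.0442). DBP was at a log2 difference of -0.30 (95% interval -0.51 to -0.09, edgeR adjusted p = 0.199) and CRY1 at 0.16 (0.02 to 0.30, edgeR adjusted p = 0.361), both without overlap between groups. PER1 differed by 0.003 (95% interval -0.18 to 0.19), PER2 by -0.14 (-0.29 to 0.003), CRY2 by -0.05, BHLHE41 by -0.11, NR1D1 by -0.11 and NR1D2 by -0.08. For PER2 and NR1D2 too, all dTAG-S0 libraries were below all DMSO-S0 libraries. How often this occurs over all genes tested was not computed, so it is not read as a difference for members that did not pass.

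In cells given serum, dTAG against DMSO asked whether KAP1 depletion changes the stimulated level. No member passed in edgeR's quasi-likelihood test, where 1.23% of all genes tested did. An unadjusted p under 0.05 was found for 2 members and for 10.4% of all genes tested. DESeq2 called 1 member, among 298 of the 13093 genes, and edgeR's likelihood ratio test 0. The member DESeq2 called was NR1D2, at 191, 173 and 173 CPM in DMSO-S30 and at 155, 165 and 154 CPM in dTAG-S30, without overlap. Its log2 difference was -0.19 in edgeR (95% interval -0.31 to -0.06, adjusted p = 0.153) and -0.19 in DESeq2 (adjusted p = 0.041). BHLHE41 was at -0.51 (95% interval -0.92 to -0.11, edgeR adjusted p = 0.292), also with all dTAG libraries lower. BHLHE40, at 167, 148 and 165 CPM in DMSO-S30 and 168, 185 and 196 CPM in dTAG-S30, was at 0.16 (95% interval -0.004 to 0.33, edgeR adjusted p = 0.501). PER1 was at -0.12 (95% interval -0.28 to 0.05) and the other members lay between -0.15 and -0.03. PER3 was among these, with all dTAG-S30 libraries below all DMSO-S30 libraries. For BHLHE40 all dTAG-S30 libraries were above all DMSO-S30 libraries. Here too the share of all genes tested without overlap was not computed, and none of these is read as a difference. The dTAG comparisons without and with serum use different libraries, and each shares a group with both serum comparisons.

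**Figure D4:**
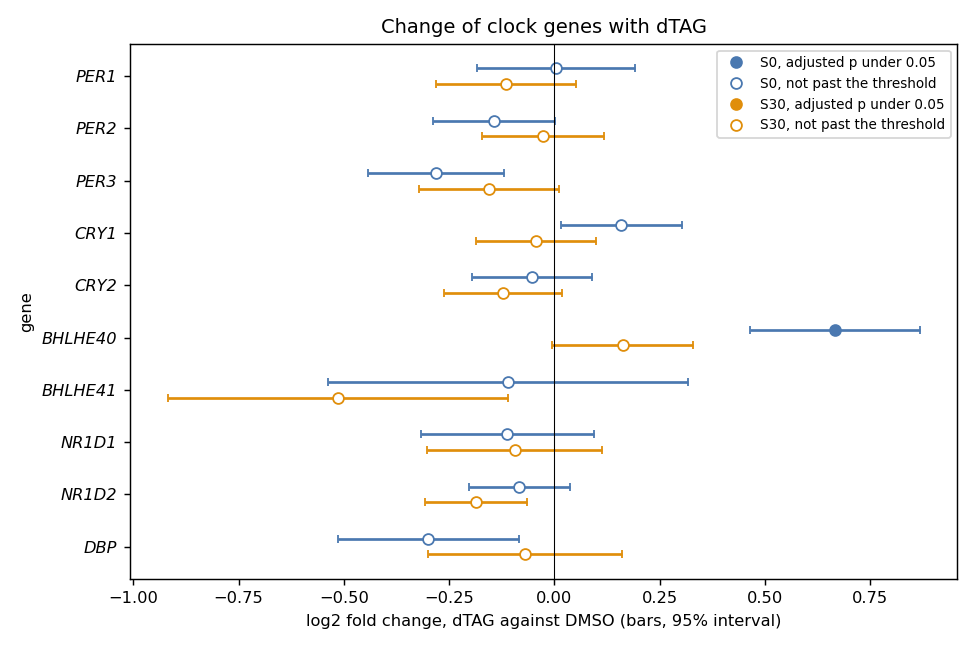
Each row is 1 clock gene and the axis is the log2 fold change between dTAG and DMSO, without serum (S0, blue) and with serum (S30, orange); bars are 95% intervals and filled points passed an adjusted p of 0.05 in edgeR. BHLHE40 without serum, at 0.67, is the 1 filled point, and with serum its value is 0.16.

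The interaction compares the serum effect in dTAG with that in DMSO. No member passed in edgeR, where 0.0382% of all genes tested did, and DESeq2 and the likelihood ratio test called 0. An unadjusted p under 0.05 was found for 3.16% of all genes tested and for 1 member, BHLHE40, whose log2 serum effect was smaller in dTAG. Its interaction was -0.50 (SE 0.131, 95% interval -0.77 to -0.24), at an edgeR adjusted p of 0.411. With dTAG against DMSO, BHLHE40 was at a log2 difference of 0.67 without serum and of 0.16 with serum. The smaller serum effect thus went with a higher level before serum, and the level with serum was not lower in dTAG. Without a count filter the BHLHE40 interaction was -0.43 with an edgeR adjusted p of 0.0103. For PER1 the interaction was -0.12 (95% interval -0.38 to 0.14), for CRY1 -0.20 (-0.41 to 0.01), for DBP 0.23 (-0.09 to 0.55) and for BHLHE41 -0.40 (-1.01 to 0.20). The calls of DBP, BHLHE41 and NR1D2 with serum in DMSO and not in dTAG are therefore not shown to differ between the treatments.

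The rest of the clock was described through 24 other genes, of which 23 were in the table and 20 were tested. RORA, RORB and CIART had at most 8, 4 and 11 counts per library and were not tested, and FBXL21 was not analysed here. With serum in DMSO 6 of the 20 were higher, 2 lower and 12 not past the test, and in dTAG 5 were higher, 0 lower and 15 not past. Of all genes tested, 9.18% were higher and 17.1% lower in DMSO, and 9.09% and 15.4% in dTAG. The median log2 fold change of the 20 was 0.03 in DMSO and 0.07 in dTAG. Of the activators, CLOCK was at -0.01 and 0.06 and BMAL1 (ARNTL) at -0.04 and 0.03 in DMSO and in dTAG, and neither passed in either. NPAS2, the paralog of CLOCK, rose by 0.25 in DMSO (edgeR adjusted p = 0.0210) and by 0.33 in dTAG (edgeR adjusted p = 0.00247) on the log2 scale. ARNTL2, the paralog of BMAL1, was at 0.12 in DMSO and rose by 0.17 in dTAG (edgeR adjusted p = 0.0306).

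NFIL3, a repressor that competes with DBP for D-boxes, rose with serum: it was at 44.1, 40.7 and 40.4 CPM in DMSO-S0 and at 94.8, 84.9 and 102 CPM in DMSO-S30, with log2 fold changes of 1.19 in DMSO (edgeR adjusted p = 2.17e-13) and 0.87 in dTAG (edgeR adjusted p = 5.65e-11). NFIL3 was also the 1 gene of the 20 that passed with dTAG without serum, at 0.33 (edgeR adjusted p = 0.0105), where its dTAG-S0 libraries were at 52.5, 50.2 and 53.3 CPM. In that comparison 0.855% of all genes tested were higher and 0.451% lower. The other PAR bZIP genes, TEF and HLF, did not pass with serum.

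Of the genes of the CREB pathway, which carries signals into PER1, CREM, a CRE-binding modulator, was at 18.3, 20.1 and 18.3 CPM in DMSO-S0 and at 66.2, 59.7 and 75.9 CPM in DMSO-S30. Its log2 fold change was 1.82 in DMSO (edgeR adjusted p = 3.40e-15) and 1.49 in dTAG (edgeR adjusted p = 1.44e-13). SIK1, the kinase that restrains the CREB coactivators, rose from 6 to 21 counts per library in DMSO-S0 to 204 to 297 in DMSO-S30, with log2 fold changes of 4.39 (edgeR adjusted p = 1.26e-14) and 3.55 in dTAG (edgeR adjusted p = 3.02e-13). SIK1 has a near-identical copy in the genome, so its counts are uncertain. CREB1 was at 0.17 (edgeR adjusted p = 0.0322) and the coactivator gene CRTC3 at -0.29 (edgeR adjusted p = 0.00144) in DMSO, and neither passed in dTAG.

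Among the genes that modify PER and CRY proteins, CSNK1E, a casein kinase that phosphorylates PER, was higher with serum in DMSO by 0.24 on the log2 scale (edgeR adjusted p = 0.0294). BTRC, of the ubiquitin ligase that targets PER, was at -0.20 (edgeR adjusted p = 0.0189). With dTAG and serum, and for the interaction, 0 of the 20 passed in edgeR's quasi-likelihood test, its likelihood ratio test or DESeq2, and 4 had an unadjusted p under 0.05 in each, against 10.4% and 3.16% of all genes tested.

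**Figure D5:**
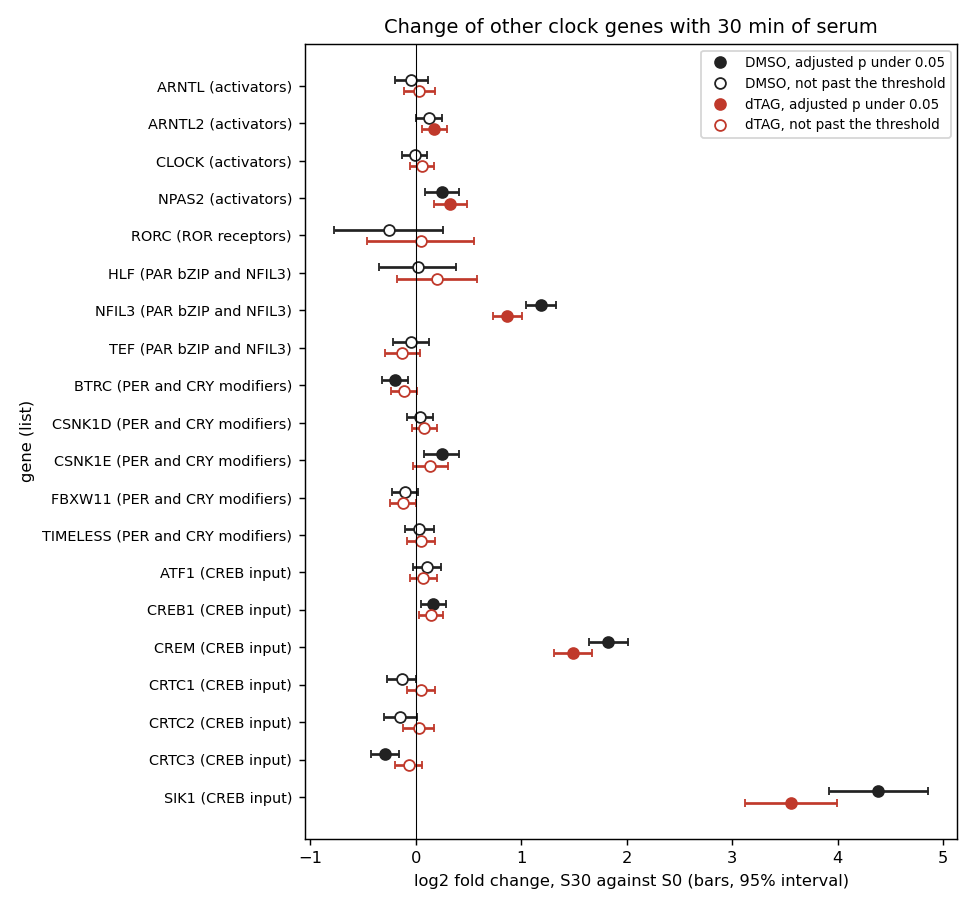
Each row is 1 of the 20 other clock genes tested, with its list in brackets, and the axis is the log2 fold change between S30 and S0 in DMSO (black) and dTAG (red); bars are 95% intervals and filled points passed an adjusted p of 0.05 in edgeR. SIK1 (4.39 and 3.55), CREM (1.82 and 1.49) and NFIL3 (1.19 and 0.87) stand to the right, and CLOCK and ARNTL lie near 0.

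The genes most like PER1 over the 12 libraries, by Pearson correlation of log2 CPM, were CNN2 (0.9978), FOSL2 (0.9977) and ARHGAP23 (0.9977), and 220 genes had a correlation above 0.98 with it. Those most like BHLHE40 were RHOB (0.9972), PLAU (0.9971) and ERRFI1 (0.9962), and 119 genes had a correlation above 0.98. These values describe 12 libraries that fall into serum and no serum, and the step between them sets most of each value.

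The counts of some members may include reads of neighbours, since the strand setting of the counting is not given in the sources used here. They may also lack reads, since how reads over overlapping gene models were counted is not known here. A same-strand gene model, ENSG00000263620, covers 35.5% of the PER1 model, at 5 to 20 counts per library against 638 to 2970 for PER1. At these low counts its log2 difference with serum was 0.57 in DMSO (edgeR adjusted p = 0.344) and 1.18 in dTAG (edgeR adjusted p = 0.0336). The antisense lncRNA BHLHE40-AS1 covers 20.9% of the BHLHE40 model and has no row in the table, so reads of the 2 cannot be told apart. The same holds for opposite-strand lncRNAs that cover 25.2% of the PER2 model (ENSG00000225057) and 28.1% of the PER3 model (ENSG00000236266). UTS2 and NKIRAS1 cover 3.44% of PER3 and 3.77% of NR1D2. Overlaps were examined for the 10 members, in GENCODE v44, and not for the other genes named. Of 19766 genes matched by identifier, 11076 had the same lower coordinate in the count table and in v44. The annotation used for counting was thus not identical to v44, and the overlaps are approximate.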

How the data were processed

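RNA-Seq of rRNA-depleted RNA gave 12 libraries in 4 groups of 3. Per the study's methods and the labels, the authors checked reads with FastQC 0.11.8, trimmed them with Trim Galore 0.6.4, mapped them to hg38 with STAR and counted them with featureCounts (Subread 1.6.3) over whole protein-coding genes, introns included, so unspliced RNA adds to each value. The deposited table holds unnormalised read counts for each gene and ERCC transcript, with gene positions. The annotation release, strand setting and treatment of reads mapping to several places are not given in the sources used here.

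Here, genes reaching 10 counts in 6 or more libraries were kept (13093 of 19901; 69 of 92 ERCC transcripts). Counts were scaled by the upper quartile, 1 factor of unwanted variation was computed from the ERCC rows (RUVg), and 1 model of all groups was fitted with edgeR 4.0.16 (R 4.3.3), using the two-sided quasi-likelihood F-test and Benjamini-Hochberg adjustment over the 13093 genes. Calls were made at an adjusted p under 0.05. Normalised CPM are edgeR's CPM on the scaled library size. Ratios of paralogs were log2((count + 0.5)/(count + 0.5)). For correlations, log2 CPM had a prior count of 2. Table starts, counted from 0, are given from 1. Total counts were 20537682 to 26278707 per library, and precision covers counting error and the spread between libraries, not amplification.

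The named genes were all 10 members, the other clock genes past the test with serum, the 3 genes most correlated with each member that changed by a log2 of at least 1 with serum in DMSO, FOS and TRIM28. CLOCK and ARNTL, and values of other genes that did not pass, were added after their values were seen. The members and lists were chosen with earlier results of these data known. One gene of the list of other clock genes is not reported here and is left out of its counts. Alternatives were TMM scaling, ERCC library sizes, no factor, the likelihood ratio test, DESeq2 1.42.0, no count filter, only the 6 libraries compared, a replicate block, a ratio pseudocount of 5 and leaving out each library. The fit was run on simulated counts with the same spread for every gene and no unwanted variation between libraries. These data differ in both, so that run does not show how the fit performs on them. Promoter sequences and starts are RefSeq's, and overlaps are GENCODE v44's. The study calls the libraries biological replicates. Counts of replicate pairs differed by 3.02 to 9.80 times sampling noise (chi-square per degree of freedom), so each was counted as 1 sample.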

Additional observations from a re-analysis of the deposited data

How the results depend on the processing

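The counts of members called were 8 with serum in DMSO and 5 with serum in dTAG, and 1, 0 and 0 with dTAG without serum, dTAG with serum and the interaction. Over the settings that kept all libraries the serum count was 8 in DMSO and 4 to 6 in dTAG, the fits of only the 6 libraries compared gave 9 and 5, and leaving out 1 library gave 6 to 8 and 4 to 5. With dTAG without serum the count was 2, the added member being PER3, without the spike-in factor, in the likelihood ratio test, in DESeq2 and without a count filter, and leaving out 1 library gave 1 to 2. With dTAG and serum it was 1 (NR1D2) in DESeq2 and without a count filter, and the interaction was 1 (BHLHE40) without a count filter. The cause was not tested. Some differences near 0 changed sign: PER3 with serum in dTAG was 0.006257 with TMM scaling and 0.006459 in DESeq2, and PER1 with dTAG without serum was -0.01365 without the factor, -0.006932 in DESeq2 and -0.02098 without a count filter, none past the test. Leaving out 1 library gave -0.0819 to 0.004762 for PER3 with serum in dTAG and -0.08078 to 0.109 for PER1 with dTAG without serum. With dTAG and serum it gave -0.06337 to 0.02168 for PER2, -0.06875 to 0.01277 for CRY1, -0.1634 to 0.03153 for NR1D1 and -0.139 to 0.02424 for DBP, and for the NR1D1 interaction -0.1367 to 0.1555. The CRY1/CRY2 shift was -0.1766 to -0.1344 and the NR1D1/NR1D2 shift -0.06694 to 0.03374. Deviations from the group means were compared over 12 pairs of libraries with the same replicate number. Their correlation was -0.153 to 0.0986, and 0 were over 0.1. Such values do not show whether samples were handled together by replicate number. With the replicate number as a block the counts of members called were 8, 5, 1, 0 and 0, and under the block the CRY1/CRY2 shift of -0.1602 had an adjusted p of 0.075 by an exact sign-flip permutation test. Of the log2 fold changes of single members under these settings, 946 kept direction and side of the threshold, 20 reversed, 12 fell below it and 12 passed it. BHLHE41, at 46 to 85 counts, is the member whose depth limits it most.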
